A study of Mus musculus with 8 samples.

Results

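NFKB2, BCL2A1, LITAF and IFITM1 are 4 genes that cells switch on when inflammatory cytokines, bacterial products or interferons reach them. Here they were followed in myoblasts that had been kept in medium conditioned by pancreatic cancer cells. Every spot of the array annotated with one of these symbols and no other was taken, which gave 4 of the 2922 genes measured and 8 of the 9984 spots. Each gene had 1 probe, printed in 2 adjacent spots. The genes were selected for this description because they answer cytokines that tumour cells may release, and they were chosen by their scores in MBC14 over MBN14 and MBC24 over MBN24, which were in view. Those matched-hour scores are therefore given as a description, without a test.

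The RNA came from C2C12, an established mouse myoblast line, grown in DMEM with 2 mM glutamine and 10% fetal bovine serum. In the labels MBC is RNA taken at 14 or 24 h from myoblasts in CAPAN-1 conditioned medium (CAPAN-1 is an established line of human pancreatic adenocarcinoma), and MBN is RNA of myoblasts in control medium, taken at 0, 14 or 24 h. The design set conditioned against control myoblasts at the matched hour (MBC14 over MBN14 and MBC24 over MBN24) and against control myoblasts at 0 h (the same MBC14 and MBC24 over MBN0). Each of these 4 comparisons was hybridised to 2 two-colour arrays with crossed dyes: array A carries the conditioned RNA in Cy5 and array B carries it in Cy3. The arrays held human probes for genes expressed in muscle, so mouse RNA was measured across species. The labels name no separate cultures, so arrays A and B count as 1 replicate, their SD is technical (n = 2 arrays throughout), and no single comparison has a test. No allele or transgene is named, and all groups share the cell line and the basal medium. For MBC14 over MBN0, the labels of array B name opposite dyes in the dye field and in the labelling protocol; the dye field was followed, and the array A value of that comparison does not depend on the choice.

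NF-kB proteins wait in the cytoplasm bound to inhibitors and move to the nucleus when receptors for TNF, interleukin-1 or bacterial products signal. NFKB2 encodes the p100 precursor, which is cut to the p52 subunit that pairs with RELB in the slower, non-canonical branch, and NFKB2 is itself an NF-kB target. BCL2A1 is an anti-apoptotic BCL2 relative and a well-known NF-kB target. LITAF, named for its induction by lipopolysaccharide and its link to TNF, is a membrane protein of late endosomes and lysosomes. IFITM1 is an interferon-induced membrane protein that hinders the entry of many enveloped viruses. In muscle, cytokine signalling through NF-kB and STAT3 is known for its part in the wasting that accompanies cancer.

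Promoter windows of the mouse genes, taken from RefSeq on build GRCm38.p6, reach from 250 bases before to 50 bases after each annotated start. Motifs were searched on both strands, 3 in all: an NF-kB-like site (GGG, any 2 bases, TT, any base, CC), which stands in 4.79% of all 32851 windows of that length, an interferon-stimulated response element (GAAA, any 2 bases, GAAA), in 3.44%, and a STAT site TTCNNNGAA, in 8.30%. All 3 windows of Nfkb2 held the NF-kB-like letters, the last 2 windows sharing 1 match in their overlap. The first window, at chr19:46304487-46304786 on the plus strand, held 3 matches, GGGAATTCCC and the overlapping GGGGCTTTCC and GGGCTTTCCC, besides 1 STAT match. The second, at chr19:46305445-46305744 on the plus strand, held GGGACTTTCC. Both are shown because Nfkb2 was the one gene of the 4 whose windows held these letters. Capitals mark the motif matches.
Nfkb2 window 1: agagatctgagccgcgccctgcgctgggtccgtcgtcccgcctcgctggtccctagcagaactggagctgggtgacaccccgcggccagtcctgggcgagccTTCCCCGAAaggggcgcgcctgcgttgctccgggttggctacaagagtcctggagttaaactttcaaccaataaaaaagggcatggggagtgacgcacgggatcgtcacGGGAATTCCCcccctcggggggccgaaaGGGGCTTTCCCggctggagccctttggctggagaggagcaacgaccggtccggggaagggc
Nfkb2 window 2: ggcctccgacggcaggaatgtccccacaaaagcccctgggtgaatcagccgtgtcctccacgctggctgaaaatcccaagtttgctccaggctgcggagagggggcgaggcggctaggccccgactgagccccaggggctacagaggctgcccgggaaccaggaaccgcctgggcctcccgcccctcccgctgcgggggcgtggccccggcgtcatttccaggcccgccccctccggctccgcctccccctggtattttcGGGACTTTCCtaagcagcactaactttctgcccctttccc
The Ifitm1 window, at chr7:140967826-140968125 on the plus strand, held none of the 3 motifs, whereas the window of its neighbour Ifitm2, at chr7:140955912-140956211 on the minus strand, held the response element as GAAAAGGAAA. They are shown side by side because the mouse has a family of 7 Ifitm genes facing the 1 human IFITM1 probe.
Ifitm1: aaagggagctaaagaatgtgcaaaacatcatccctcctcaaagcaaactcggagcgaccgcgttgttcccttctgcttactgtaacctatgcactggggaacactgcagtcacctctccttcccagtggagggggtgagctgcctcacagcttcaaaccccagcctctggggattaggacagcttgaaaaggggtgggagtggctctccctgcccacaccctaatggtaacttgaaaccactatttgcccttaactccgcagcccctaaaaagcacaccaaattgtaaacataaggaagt
Ifitm2: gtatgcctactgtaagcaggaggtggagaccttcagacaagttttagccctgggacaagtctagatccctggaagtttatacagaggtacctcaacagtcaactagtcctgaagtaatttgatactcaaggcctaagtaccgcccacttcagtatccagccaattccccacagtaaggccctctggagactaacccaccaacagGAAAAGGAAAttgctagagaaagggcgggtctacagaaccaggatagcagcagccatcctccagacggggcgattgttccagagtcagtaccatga
The Ifitm3 window held 2 matches to the response element and 1 to the STAT site. The Litaf window and those of all 4 mouse copies of Bcl2a1 held none of the 3 motifs. The Bcl2a1a window shared unbroken runs of 174, 81 and 84 bases with those of Bcl2a1b, Bcl2a1c and Bcl2a1d, which says nothing of the probe. The probe sequences were not used here, so which of the copies, or of the Ifitm genes, the human probes measured was not tested. A match describes letters in a window and is neither a site nor a cause, and the absence of one covers only these letters in this window.

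The deposited value of a spot is a signed score whose scale and direction are not stated. Single spots reached 24.8, more than signals of a 16-bit scanner allow on a log2 scale, so scores are given in their own units and no fold is drawn from them. Each array was centred on its median. Scores of arrays A and B, as deposited, ran against each other over the 2922 genes in every comparison, with correlations of -0.32 and -0.28 at the matched 14 and 24 h and of -0.13 and -0.27 against 0 h. Read as Cy5 over Cy3, which turns the sign of array B, the arrays of a pair then run the same way, and that reading leads below. Whether the opposite signs as deposited come from the direction of the score or from the dyes themselves was not tested. Read as conditioned over control, both arrays stand as deposited. Array A means conditioned over control under either of these readings, so between them only array B and the mean differ. A score of Cy3 over Cy5 would also set the arrays of a pair against each other, and would turn every direction, that of array A too. That was not tested, and array A alone also carries any effect of the dyes. For MBC14 over MBN0, turning array B follows its dye field. By its labelling protocol that array would stay as deposited. The noise of 1 spot was large: over 3305 adjacent spot pairs of 1 gene, the SD of a spot lay between 0.82 and 1.19 on the 8 arrays, and the pairs correlated at 0.33 to 0.65. A gene is called past the size rule where the mean of both arrays is at least 1 in size and each array is at least 0.5 in that direction.

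LITAF was the gene of the 4 with 1 direction on every array once array B was turned. It was below 0 on all 4 arrays A and above 0 on all 4 arrays B as deposited. Under the Cy5 over Cy3 reading, with the dye field followed, it was thus lower in conditioned than in control myoblasts in all 4 comparisons. BCL2A1 was higher in conditioned myoblasts at both matched hours under that reading, IFITM1 lower at both, and NFKB2, with means below 0 in all 4 comparisons but an array A above 0 in 1, had no mean past the size rule at either. Under that reading 3 of the 4 genes passed the size rule at 14 h, against 19.9% of all genes, and 3 of 4 at 24 h, against 17.6%. Because the matched-hour scores were known when the genes were chosen, nothing is read from those counts. Against 0 h, 2 of 4 passed at 14 h, against 15.7% of all genes, and 2 of 4 at 24 h, against 19.3%. Read as conditioned over control, 0, 0, 1 and 0 of the 4 passed in the same order of comparisons, against 6.37%, 6.02%, 10.3% and 6.84% of all genes.

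**Figure D1:**
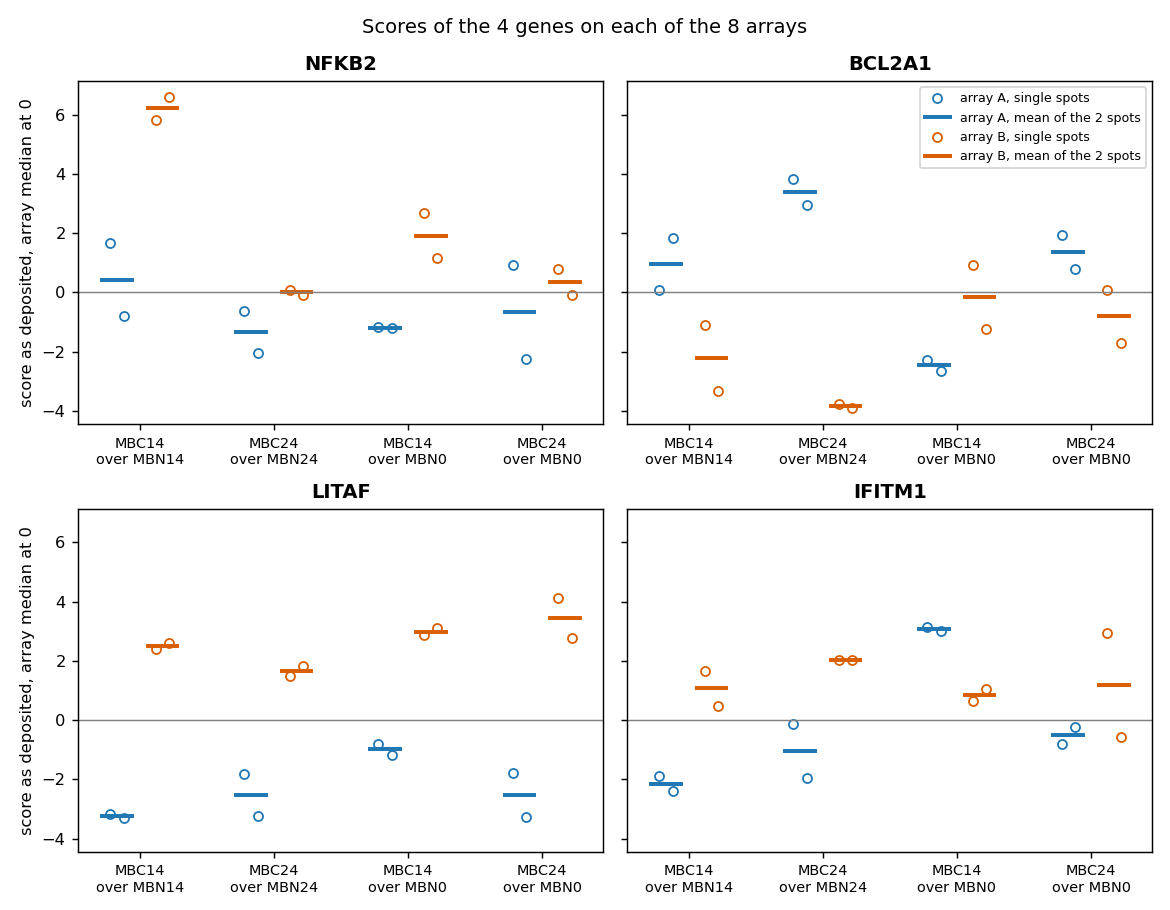
Score of each spot as deposited (vertical axis, score units, array median at 0) for the 4 genes in the 4 comparisons, with array A in blue and array B in orange. Circles are the 2 spots of the gene and bars their mean. LITAF sits below 0 on every array A and above 0 on every array B, and the 2 NFKB2 spots on array B of MBC14 over MBN14 stand at 5.82 and 6.61.

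NFKB2, the NF-kB subunit gene, carried the most extreme single score of the 4 genes. In MBC14 over MBN14 its spots read 5.82 and 6.61 on array B, a gene score of 6.21 that no other gene on that array exceeded. On array A of the same RNAs its spots disagreed in sign, at 1.66 and -0.79, with a mean of 0.44. The 2 arrays of this pair therefore gave NFKB2 no common size, whatever the reading. Read as Cy5 over Cy3 the mean was -2.89 ± 4.70 (SD), and read as conditioned over control it was 3.32 ± 4.09, the highest mean of the 2922 genes; neither passed the size rule, since array A was under 0.5 in size. Array A alone thus placed NFKB2 at 0.44 in conditioned over control, above 67.2% of genes.

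In the other comparisons the NFKB2 mean passed the size rule once, in MBC14 over MBN0. In MBC24 over MBN24 its spots read -0.61 and -2.03 on array A and 0.10 and -0.07 on array B, a mean of -0.67 ± 0.92. With centring on the 51 or 11 nearest spots, a window that includes the gene's own spots, that mean was above 0 (0.12 and 0.37). Against 0 h at 14 h the spots read -1.18 and -1.21 on array A and 2.67 and 1.16 on array B. That mean, -1.55 ± 0.51, passed the size rule under the Cy5 over Cy3 reading, among the 8.38% of genes that passed it as lower, and became 0.36 ± 2.2 when array B was left as deposited. The call also rests on the dye field of that array B, and was lost under a stricter rule asking for a mean of at least 1.58. At 24 h against 0 h the spots of array A stood far apart, at 0.94 and -2.23, those of array B read 0.81 and -0.09, and the mean was -0.50 ± 0.20. Both spots had the same sign on 4 of the 8 arrays, the fewest of the 4 genes.

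BCL2A1, the survival gene, gave its clearest values at 24 h. In MBC24 over MBN24 its spots read 3.81 and 2.96 on array A, above 99.7% of genes, and -3.76 and -3.91 on array B, where 0.7% of genes were lower. All 4 spots lay beyond 2.9 in size, and the arrays took opposite signs as deposited. Read as Cy5 over Cy3, the mean was 3.61 ± 0.32, the 7th highest of 2922, in the group of 7.94% of genes called higher in that comparison. Read as conditioned over control, the same spots gave -0.22 ± 5.11. With centring on the 11 nearest spots the Cy5 over Cy3 mean was 1.70, still past the size rule.

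At 14 h BCL2A1 leaned the same way with less agreement between its spots. The spots read 0.10 and 1.85 on array A and -1.09 and -3.33 on array B. Under the Cy5 over Cy3 reading this was a mean of 1.59 ± 0.87, past the size rule along with 9.1% of genes called higher. That call was lost with centring on the 11 nearest spots, where the mean was 0.09, and on array A alone (0.97). Against 0 h the direction split by hour. At 14 h the spots of array A read -2.27 and -2.63 and those of array B 0.93 and -1.25, a mean of -1.15 ± 1.85 that did not pass the size rule. At 24 h they read 1.94 and 0.79 on array A and 0.09 and -1.70 on array B, and the mean of 1.08 ± 0.40 passed it, as did 8.38% of genes in that direction. This call was lost with centring on the 51 (0.97) or 11 nearest spots (0.44), under a stricter rule asking for a mean of 1.58, and on array B alone (0.80). On array A, where both readings coincide, BCL2A1 was thus above 0 in 3 comparisons and below 0 in MBC14 over MBN0.

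LITAF, the endosomal protein gene, was low on array A at both matched hours. In MBC14 over MBN14 its spots read -3.17 and -3.31 on array A and 2.39 and 2.62 on array B. The 2 spots nearly coincided on each array, and the arrays took opposite signs as deposited. Under the Cy5 over Cy3 reading the mean was -2.87 ± 0.52, the 5th lowest of all genes, where 10.8% were called lower. In MBC24 over MBN24 the spots read -1.81 and -3.22 on array A and 1.49 and 1.84 on array B, a mean of -2.09 ± 0.60, where 9.69% were called lower. Read as conditioned over control, the 2 means were -0.36 ± 4.06 and -0.43 ± 2.95. With centring on the 11 nearest spots the Cy5 over Cy3 means were -1.37 and -2.27, both past the size rule.

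The comparisons with 0 h, made on other arrays with the same conditioned RNA, gave LITAF the same signs. At 14 h its spots read -0.80 and -1.17 on array A and 2.86 and 3.10 on array B, a mean of -1.98 ± 1.41. At 24 h they read -1.80 and -3.27 on array A and 4.10 and 2.77 on array B, a mean of -2.99 ± 0.64, the 6th lowest, where 10.9% of genes were called lower. Centring on the 11 nearest spots ended both calls, with means of -0.32 and -0.74, and array A alone ended the first (-0.98). The spots of LITAF itself are part of that window, so its own score enters the median subtracted. With array B turned, LITAF was below 0 on all 8 arrays, as were 100 genes (3.42%), and past the size rule as lower in all 4 comparisons, as were 7 genes. Both statements follow the dye field for array B of MBC14 over MBN0. By its labelling protocol that array would not be turned, and the LITAF mean there would be 1.0 ± 2.8. On the arrays A alone, which are the same in both readings used, 322 genes (11%) were below 0 all 4 times, LITAF among them. Its 2 spots had the same sign on 8 of 8 arrays, with a median gap of 0.36.

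Spots printed beside LITAF had medians below 0 but ranged to both sides of it. The median of the 20 nearest spots, with array B turned, was -1.07 in MBC14 over MBN14, -0.16 in MBC24 over MBN24, -0.57 in MBC14 over MBN0 and -1.35 in MBC24 over MBN0. Their highest values lay between 0.37 and 2.86. LITAF was lower than all 20 of them at both matched hours. Against 0 h, 5 of the 20 were lower still at 14 h and 1 at 24 h. How much of the LITAF score the position on the slide carries was not tested beyond the local centring given with the test of the 0 h comparisons.

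IFITM1, the interferon-induced gene, was lower in conditioned myoblasts at both matched hours on array A. In MBC14 over MBN14 its spots read -1.89 and -2.38 on array A and 1.67 and 0.49 on array B. In MBC24 over MBN24 they read -0.13 and -1.95 on array A and 2.04 and 2.04 on array B. Under the Cy5 over Cy3 reading the means were -1.61 ± 0.74 and -1.54 ± 0.70, both past the size rule. The call at 24 h was lost with centring on the 51 nearest spots (-0.96) and under the stricter rule. Left as deposited, the means were -0.53 ± 2.28 and 0.50 ± 2.18.

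Against 0 h IFITM1 took another direction at 14 h. Its spots read 3.13 and 3.01 on array A, above 98.4% of genes, and 0.64 and 1.05 on array B. These 4 spots were all above 0 as deposited, so this was the comparison in which IFITM1 passed the size rule as conditioned over control, at 1.95 ± 1.57, the 35th highest mean. Under the Cy5 over Cy3 reading the 2 arrays opposed each other, and the mean of 1.11 ± 2.76 was not among the 7.29% of genes called higher. At 24 h the array A spots read -0.81 and -0.22, while those of array B read 2.95 and -0.56, a gap of 3.51 that was wider than 96.0% of spot pairs on that array. The mean there was -0.85 ± 0.48 and did not pass the size rule.

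**Figure D2:**
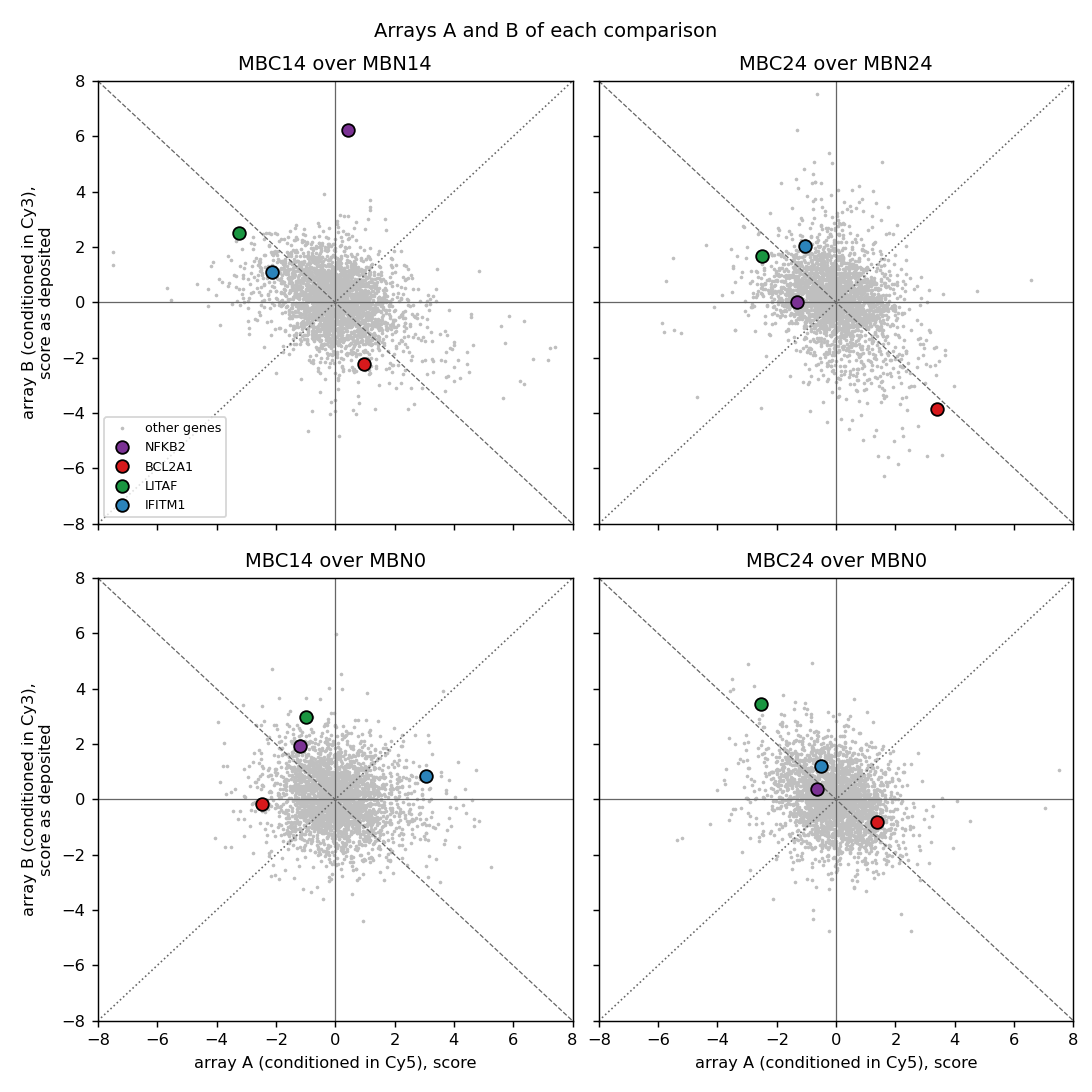
Gene scores of array A (horizontal axis) against array B (vertical axis), both as deposited in score units, for each comparison. Grey points are all other genes, with 3 outside the axes in MBC24 over MBN0. Genes on the dashed line have equal and opposite scores, as a Cy5 over Cy3 score would give, and genes on the dotted line have equal scores. LITAF at both matched hours and BCL2A1 at 24 h lie near the dashed line, while NFKB2 at 14 h (0.44 on array A, 6.21 on array B) lies near neither.

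The comparisons of conditioned myoblasts with control myoblasts at 0 h were not those whose scores chose the genes, so they carry the one test. They hold the same conditioned RNA, however, so the test is not free of that choice. The shift common to MBC14 over MBN0 and MBC24 over MBN0 was tested with limma, two-sided, with Benjamini-Hochberg adjustment over all 2922 genes. LITAF was lower by a mean of -2.48 ± 0.48 (SE), with an adjusted p of 6.8e-05, and was lower on 4 of 4 arrays with array B turned. It was 1 of 168 genes called, 5.75% of those tested, 79 of them higher and 89 lower. NFKB2 had a shift of -1.03 ± 0.48 (adjusted p = 0.225), BCL2A1 of -0.03 ± 0.48 (adjusted p = 0.982) and IFITM1 of 0.13 ± 0.48 (adjusted p = 0.920). NFKB2 was lower on 4 of 4 arrays with array B turned, whereas BCL2A1 and IFITM1 each had shifts of opposite sign at the 2 hours.

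The call of LITAF depended on the reading, the centring and the arrays used. It also follows the dye field for array B of MBC14 over MBN0. By its labelling protocol that array would not be turned, and the LITAF mean of that comparison would be 1.0 in place of -1.98. The shift was not tested that way. The 2 values per gene share the RNA of MBN0, whose own spread is left out, and share the conditioned RNA with the arrays that chose the genes. In addition, limma gave all genes the same SE, so p rests on 1 spread pooled over all genes and not on the spread of LITAF itself. Read as conditioned over control, limma gave LITAF a shift of 0.73 (adjusted p = 0.689) and called 0 of 2922 genes, with 228 at an unadjusted p under 0.05. With scores centred on the 51 nearest spots the LITAF shift was -1.83 (adjusted p = 0.0519), and on the 11 nearest it was -0.53 (adjusted p = 0.617). Without centring it was -2.47 (adjusted p = 0.0941). From arrays A alone it was -1.76 (adjusted p = 0.222), and from arrays B alone -3.21 (adjusted p = 0.0373).

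**Figure D3:**
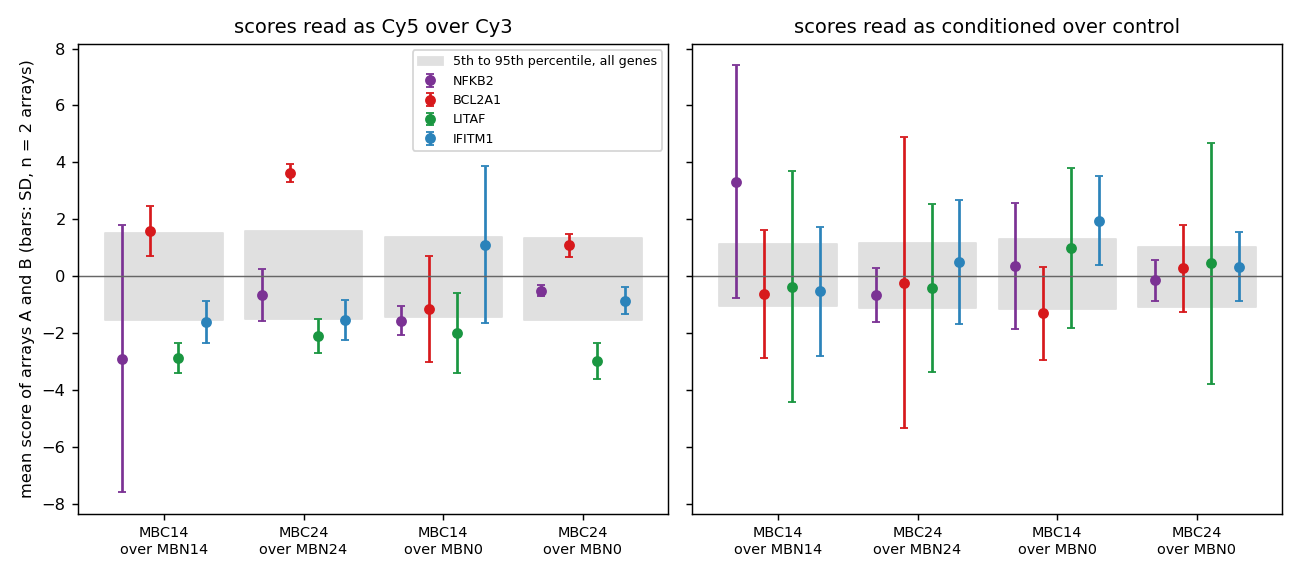
Mean score of arrays A and B (score units, bars are the technical SD over 2 arrays) of the 4 genes in each comparison, with array B turned on the left and left as deposited on the right. Grey bands span the 5th to 95th percentile of all genes. LITAF lies below the band in all 4 comparisons on the left, and its bars cross 0 in all 4 on the right.

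Scores against 0 h were also set against those at the matched hour by subtraction. Such a difference would be the change in the control medium only if scores add across arrays as log ratios do, which their unstated scale does not show. Under the Cy5 over Cy3 reading the difference for BCL2A1 was -2.74 ± 0.97 at 14 h and -2.53 ± 0.71 at 24 h. IFITM1 was 2.72 ± 3.51 at 14 h and 0.69 ± 0.22 at 24 h, LITAF 0.89 ± 1.93 and -0.90 ± 1.24, and NFKB2 1.33 ± 4.19 and 0.16 ± 0.72. The score against 0 h at 24 h minus that at 14 h was 2.23 ± 2.24 for BCL2A1, -1.97 ± 2.28 for IFITM1, -1.0 ± 0.77 for LITAF and 1.05 ± 0.71 for NFKB2. These differences reuse the arrays above and add no measurement. Array A was subtracted from array A and array B from array B, and each SD depends on that pairing by letter. Left as deposited, the BCL2A1 differences were -0.69 and 0.50 at 14 and 24 h.

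The scores of the 4 genes did not follow 1 common pattern. Likeness was measured as the cosine of 8 array scores, which is the same in both readings, and is given as a description over 8 arrays of 4 RNA pairs. BCL2A1 ran against IFITM1 at -0.83 and against LITAF at -0.60. LITAF and IFITM1 stood at 0.59, NFKB2 and LITAF at 0.55, NFKB2 and IFITM1 at 0.18, and NFKB2 and BCL2A1 at -0.38. The genes most like LITAF were GTF2I at 0.99, CKB at 0.96, the brain-type creatine kinase, and HADHB at 0.96, a subunit of mitochondrial fatty acid oxidation. Their spots lay 5335, 5279 and 5407 places from those of LITAF in the deposited order, all on the same side, and so near one another. Whether position on the slide carries part of this likeness was not tested. Most like BCL2A1 were AHNAK at 0.93, ITGB1BP2 at 0.93, the muscle protein melusin, and NKIRAS1 at 0.90, an inhibitor of NF-kB signalling that interacts with its inhibitor proteins. Most like NFKB2 were the actin-binding genes PFN1 at 0.92 and SVIL at 0.91, and ADSS1 at 0.90, the muscle adenylosuccinate synthase. Most like IFITM1 were PGM1 at 0.93, MLX at 0.92 and STRADA at 0.92.

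The other genes of these pathways were counted from lists, with no test of a list. Of 11 measured subunits, inhibitors and kinases, NFKB2 included, 1 was higher and 0 lower at each matched hour, in both cases NKIRAS1 (1.82 ± 1.5 and 2.39 ± 0.53). The list medians were -0.13 and 0.45, beside -0.04 and -0.11 over all genes. Of all genes, 9.1% were higher and 10.8% lower at matched 14 h, and 7.94% and 9.69% at matched 24 h. Against 0 h, 7.29% were higher and 8.38% lower at 14 h, and 8.38% and 10.9% at 24 h. These are the shares beside which the list counts here and below stand. Left as deposited, 1 and 3 of the 11 passed at the matched hours, beside 6.37% and 6.02% of all genes. Against 0 h NFKB2 was the 1 gene past the rule at 14 h, and at 24 h TBK1, a kinase upstream of NF-kB and interferon genes, was higher (1.23 ± 0.16) and NFKBIZ, an atypical nuclear inhibitor, lower (-1.48 ± 1.19). RELB and RELA, named here as partner subunits after their values were seen, had means of -0.17 and 0.15 at matched 14 h and of 0.16 and 0.12 at matched 24 h. Neither passed the size rule.

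Upstream of NF-kB, of 7 measured genes of TNF, interleukin-1 and Toll receptor signalling, 1 was higher and 1 lower at matched 14 h, and 0 were higher and 3 lower at matched 24 h, beside 9.69% of all genes called lower there. TRADD, the adaptor of the TNF receptor, was lower at both hours (-1.22 ± 0.58 and -1.83 ± 0.85). TNFRSF12A, the receptor of the cytokine TWEAK, was lower at 24 h (-1.31 ± 1.06), as was IRAK1, a kinase of interleukin-1 and Toll signalling (-1.33 ± 1.01). The medians were 0.05 and -0.89. As conditioned over control, 0 of the 7 passed at either hour.

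Inflammatory effectors and early response genes were represented by 26 measured genes. At matched 14 h 7 were higher and 1 lower, beside 9.1% and 10.8% of all genes, with a median of 0.47, and at matched 24 h 2 were higher and 2 lower, with a median of -0.15. TIMP1, an inhibitor of matrix metalloproteinases, was higher at both hours (1.72 ± 1.03 and 3.0 ± 0.53), and S100A8, a calcium-binding protein of myeloid cells, was higher at 14 h (2.09 ± 0.26). Left as deposited, that S100A8 mean was -0.19. The related S100A9 and S100A12 were named after their values were seen. S100A9 stood at -0.002 at 14 h and was lower at 24 h (-1.03 ± 0.71), and S100A12 passed at neither hour. IER3, an immediate early gene, was lower at 24 h (-1.60 ± 1.33). Left as deposited, 1 and 6 of the 26 passed at the 2 hours. Of 6 genes of the interleukin-6 family and JAK and STAT signalling, 0 passed at 14 h and 1, the kinase TYK2, was lower at 24 h (-1.08 ± 0.04), while 0 passed at either hour as deposited. STAT5B was lower in both comparisons with 0 h (-1.29 ± 0.14 and -1.24 ± 0.39), and the phosphatase PTPN11 passed in none.

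The list of the BCL2 family also held associated genes, such as BAG1, BAG3 and TMBIM6. Among its 10 measured genes, BCL2A1 was the 1 past the rule at matched 14 h. At matched 24 h 3 were higher and 1 lower, with PMAIP1, the pro-apoptotic NOXA, at 1.62 ± 0.96 and TMBIM6, an inhibitor of BAX-induced death, at 1.11 ± 0.61. Left as deposited, 0 and 1 of the 10 passed at the matched hours. At 24 h against 0 h 4 were higher and 0 lower, among them BNIP1 (1.27 ± 0.60), beside 8.38% and 10.9% of all genes. The list median there was 0.87, and 0 of the 10 passed as deposited. At 14 h against 0 h 0 were higher and 1 lower, and 2 passed as deposited. Of 12 measured genes for LITAF partners and endosomal sorting, LITAF included, 1 was higher and 2 lower at matched 14 h, and 0 higher and 3 lower at matched 24 h. CHMP4A, a subunit of the membrane-cutting ESCRT-III complex, was lower at 14 h (-1.5 ± 0.38), and VPS4A, the ATPase that takes that complex apart, was lower at 24 h (-1.26 ± 0.10). RAB7A, a GTPase of late endosomes, was lower at 24 h against 0 h (-2.45 ± 1.53). The list medians were -0.83 and -0.64 at the matched hours, and 1 of the 12 passed at each as deposited.

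Of 11 measured interferon-induced genes, 0 were higher and 3 lower at matched 14 h, and 0 higher and 1, IFITM1, lower at matched 24 h. ISG15, a ubiquitin-like protein, was lower at 14 h (-1.53 ± 0.44), as was IFI27L2 (-1.09 ± 0.02). ADAR, an RNA-editing enzyme, stood at 1.07 ± 0.86 at 24 h and did not pass. IFITM2, named after its values were seen as the close relative of IFITM1, had means of -0.21 and 0.88 at the matched hours and was lower at 24 h against 0 h (-1.60). The list medians were -0.03 and -0.01, and 1 and 0 of the 11 passed as deposited. PTPN2, a phosphatase that damps interferon and JAK signalling, was higher at matched 24 h (1.80 ± 0.26), the 1 measured gene of the receptors and regulators. Of 8 genes of antigen processing, 0 were higher and 1 lower at 14 h, the peptide transporter TAP2 (-2.05 ± 0.76), and 0 higher and 2 lower at 24 h, among them HLA-B (-1.24 ± 0.38). As deposited, 1 of the 8 passed at each hour. PSMB9, an immunoproteasome subunit, did not pass in any comparison.

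**Figure D4:**
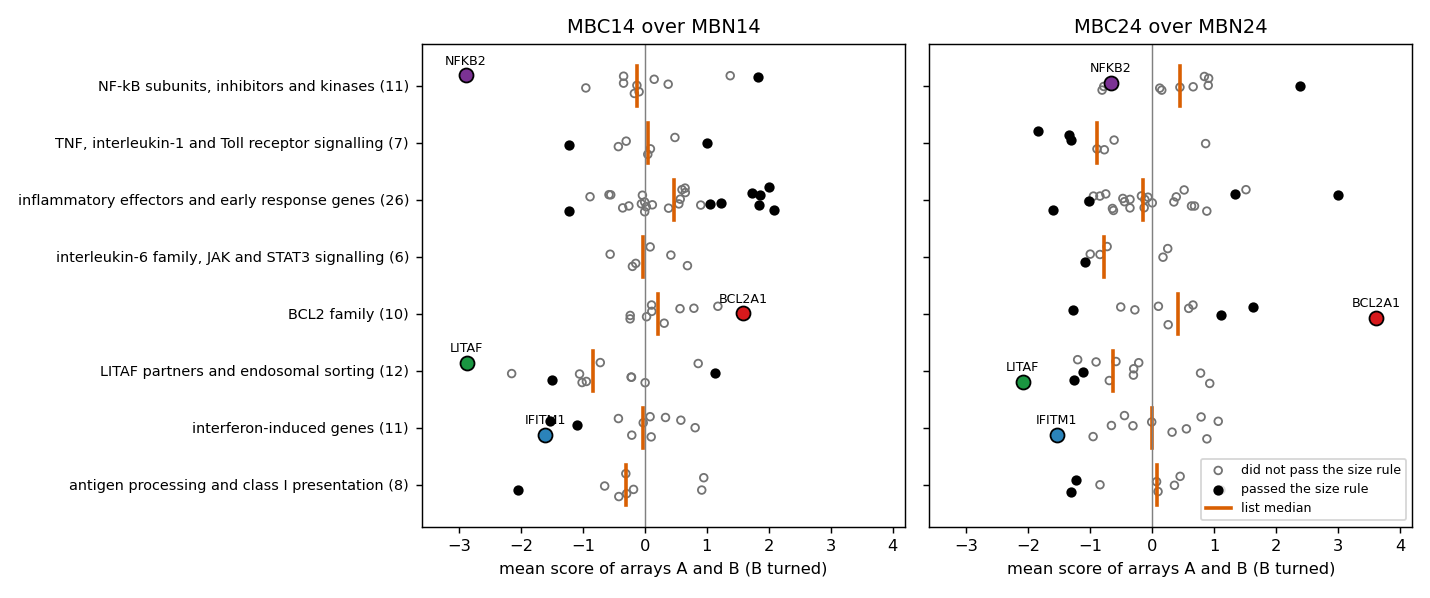
Mean score of arrays A and B with B turned (horizontal axis, score units) for the measured genes of 8 lists at matched 14 h (left) and 24 h (right), with the number measured beside each list name. Filled points passed the size rule, coloured points are the 4 genes, and orange bars are list medians. Among the 11 interferon-induced genes the filled points all lie below 0, and BCL2A1 at 24 h lies at 3.61.

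An array of ratios gives no level, so the myoblast identity of the RNA could not be checked from marker levels. Of 8 measured myoblast markers 1 was higher at matched 14 h, and 1 was higher and 1 lower at matched 24 h, ITGA7 being the higher one at both (2.82 ± 0.39 and 1.63 ± 0.63) and MEF2C the lower (-1.32 ± 0.59). MYOD1, the myogenic factor, did not pass the rule. Of 19 leukocyte and blood markers 3 were higher and 5 lower at matched 14 h and 2 higher and 3 lower at matched 24 h, with medians of 0.34 and 0.30. HBA2 (4.46 ± 3.95 and 3.48 ± 2.15) and CD37 (3.17 ± 1.19 and 3.38 ± 1.65) were higher and HLA-DRB1 (-1.55 ± 0.19 and -2.95 ± 2.64) lower at both hours. The other globin genes, named after their values were seen, went the other way: HBB was lower at matched 14 h (-1.39 ± 0.29) and HBA1 at matched 24 h (-1.25 ± 0.53). Left as deposited, 0 and 1 of the 19 passed at the matched hours. Of 8 endothelial and fibroblast markers 1 was higher and 3 lower at 14 h, and 2 lower at 24 h, with CLDN5 (-2.05 ± 0.47 and -1.66 ± 0.86) and TAGLN (-1.06 ± 0.05 and -1.23 ± 0.17) lower at both and S100A4 (-1.72 ± 1.62) lower at 14 h. Neither SPINT2 nor S100P, the 2 epithelial markers measured, passed at matched hours. Against 0 h SPINT2 was higher at 14 h (1.09 ± 0.60) and S100P lower at both hours (-1.51 ± 0.36 and -1.94 ± 0.82). The labels name C2C12 as the only source of RNA, so scores of blood, endothelial, fibroblast or epithelial markers are not read as cells of those types. Why such markers passed the rule was not tested. Fewer cells of a type and less RNA per cell cannot be told apart in RNA of a whole culture.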

How the data were processed

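RNA of C2C12 myoblasts was compared on 8 two-colour arrays, 2 for each of 4 comparisons. The authors deposited 1 signed score per spot and array; its scale, centring and direction, and the software that made it, were not given in the sources used here. Although the design had assumed log ratios, the same tests were run on the scores as they stand. Each array was centred on its median, spots were named from the platform annotation (6610 with 1 gene, 106 with several and 3268 unnamed, the last 2 kinds left out), and spots of a gene were averaged. Array B was turned in sign for the Cy5 over Cy3 reading. No counts lie behind a score, so precision rests on the number of arrays.

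The 4 genes and all gene lists were chosen with earlier results of these data known. Text names the 4 genes, up to 3 further genes per list by the size of their mean over the matched-hour comparisons, and the 3 genes of highest cosine with each of the 4, with exceptions stated. limma (3.58.1, R 4.3.3) fitted the comparisons with 0 h at a threshold of 0.05, and Python 3.11.15 and pandas 2.3.3 did the rest. The limma code was first run on simulated data whose values were independent. The real values share the RNA of MBN0, so that run does not give the rate of false calls here. Alternatives were the other reading, no or local centring, scaling, the median over spots, a stricter size rule, each array letter left out, and a replicate block. Local centring subtracted the median of a window of 51 or 11 spots, which included the spot itself and its adjacent duplicate.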

Additional observations from a re-analysis of the deposited data

How the results depend on the processing

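The results depended on the reading of array B. With both arrays as deposited, 0, 0, 1 and 0 of the 4 genes passed the size rule at matched 14 h, matched 24 h, 14 h against 0 h and 24 h against 0 h, and 0 were called in the shift common to the comparisons with 0 h. Under that reading the sign turned for the scores past the size rule of NFKB2 in MBC14 over MBN0 (0.36), BCL2A1 in MBC14 over MBN14 (-0.62) and MBC24 over MBN24 (-0.22), LITAF in MBC14 over MBN0 (1.0) and MBC24 over MBN0 (0.45), and IFITM1 in MBC24 over MBN24 (0.50), and for the common shift of LITAF (0.73). It also turned where no call was made, for NFKB2 in MBC14 over MBN14 (from -2.89 to 3.32), IFITM1 in MBC24 over MBN0 (from -0.85 to 0.34) and the common shift of NFKB2 (from -1.03 to 0.11). Centring on 11 neighbouring spots left 1 and 0 genes past the size rule in MBC14 over MBN0 and MBC24 over MBN0, and a stricter rule with a mean of at least 1.58 left 1 and 1. In the common shift 0 genes were called without centring and with centring on 51 or 11 neighbouring spots. Leaving out array A left 1 gene called and leaving out array B 0, beside 13 and 32 of all 2922 genes, against 168 with both. Over all genes limma called 52 with all 4 comparisons in the fit, 73 and 20 with centring on 11 and 51 spots, and 0 without centring (494 at an unadjusted p under 0.05). Under the Cy5 over Cy3 reading the array letters showed no pairing of the samples: deviations of the same letter correlated at -0.10 to 0.17 between comparisons. Read as conditioned over control, deviations of the same letter correlated at 0.03 to 0.53, so this depends on the reading too. A replicate block on the 4 arrays could not be fitted. Fitted over all 4 comparisons, a choice made after seeing the data, the replicate block called 1 of the 4 genes, LITAF at -2.48 (adjusted p = 0.00839 by limma), and 113 of all genes. That fit took the 8 arrays singly, with a correlation of -0.12 within a comparison, so arrays A and B of 1 RNA pair counted separately. Its p therefore rests on technical spread, and on the matched-hour arrays that chose the genes as well. Scores have no depth, and signal over background was not analysed here.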
